A study of Mus musculus with 7 samples.

Results

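The transcripts of 10 voltage-gated calcium channel subunits were compared between cultured mouse cortical neurons that carried a control lentivirus and cultures that received no virus. The genes were 7 pore-forming subunits (*Cacna1c* and *Cacna1d* of the L-type, *Cacna1a* of the P/Q-type, *Cacna1b* of the N-type, *Cacna1e* of the R-type, and *Cacna1g* and *Cacna1h* of the T-type) and 3 auxiliary subunits (*Cacnb4*, *Cacna2d1* and *Cacna2d3*). They were chosen by name, and a probe set, the group of array probes that together measure 1 transcript, was taken where it was annotated to 1 of these genes only. Of 26 such probe sets, 2 whose names end in _x_at, which mark probes shared between sequences, were dropped, and 5 that stayed under a level of 50 on all arrays were dropped. The other 19 were tested among 22748 probe sets of the whole array, and all 10 genes, of 12315 with a tested probe set of their own, kept at least 1. The low ones belonged to *Cacna1a* (2), *Cacna1e*, *Cacna1h* and *Cacna2d1*, and the shared ones to *Cacna1b* and *Cacna2d1*. The dropped probe set nearest the limit was 1430408_at of *Cacna1a*, with a highest level of 49.5, and the kept one nearest to it was 1428051_a_at of *Cacna1d*, with a highest level of 85.2.

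Cortical neurons of C57/Bl6J mouse embryos were taken at embryonic day 16 and kept for 16 days in vitro in serum-free medium with B27 supplement. The 4 luciferase samples were transduced at day 2 in vitro for 6 hours, at 3 infectious particles per cell, with a lentivirus whose H1 promoter drives a hairpin against luciferase, an enzyme that mice lack, and which also makes GFP. The 3 blank samples, labelled naïve, were cultures of the same kind without virus. Each sample was hybridised to its own Affymetrix array, and replicates are numbered 1 to 4 for luciferase and 5 to 7 for blank, as the labels give them. The comparison therefore asks what the control virus as a whole, with its hairpin, its GFP and the transduction, goes along with in these genes, and it cannot separate these components. Since the labels do not say whether the samples came from different litters or culture days, the p-values reflect the spread among these samples alone, and part of it may be technical.

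Voltage-gated calcium channels open when the membrane is depolarised and let calcium into the cell. The pore subunit sets the channel type: L-type channels of the cell body and dendrites link activity to gene transcription, P/Q- and N-type channels trigger transmitter release at nerve terminals, R-type channels act in dendritic spines and terminals, and T-type channels open at low voltage and favour burst firing. Auxiliary beta subunits bind the pore from the cytoplasm and bring it to the membrane, and alpha2delta subunits, the targets of gabapentin, raise its surface number and take part in synapse formation.

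In the luciferase cultures, 2 of the 10 genes were lower than in blank (*Cacna1a* and *Cacna1c*), 2 were higher (*Cacna1d* and *Cacna1h*), and 6 did not pass an adjusted p of 0.05 on the probe set with the highest mean, which stands for the gene here. Over all 19 probe sets, 5 passed, or 26.3%, against 24.5% of the 22748 probe sets tested. Of these 5, 3 were lower, 2 of them on *Cacna1a*, and 2 were higher. Over all probe sets tested, 8.26% were lower and 16.2% higher. Lower thus outnumbered higher among the members and not on the whole array. This balance rests on 5 probe sets and was not tested. A fall or rise of at least 1.5-fold was called for 1 member probe set, on *Cacna1a*, against 4.19% of all probe sets. The luciferase and blank values did not overlap for 8 member probe sets, or 42.1%, against 34.8% of all. The share of members that passed in either direction was thus close to that of the array as a whole. This share does not set the calcium channel genes apart as a group. The median log2 change, luciferase minus blank, was 0.11 over the 19 member probe sets and 0.056 over all tested probe sets, and it was 0.061 over the 10 genes with 1 probe set each. All log2 changes, standard errors (SE), 95% confidence intervals and adjusted p values of single probe sets come from limma with Benjamini-Hochberg adjustment over the 22748 probe sets.

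**Figure D1:**
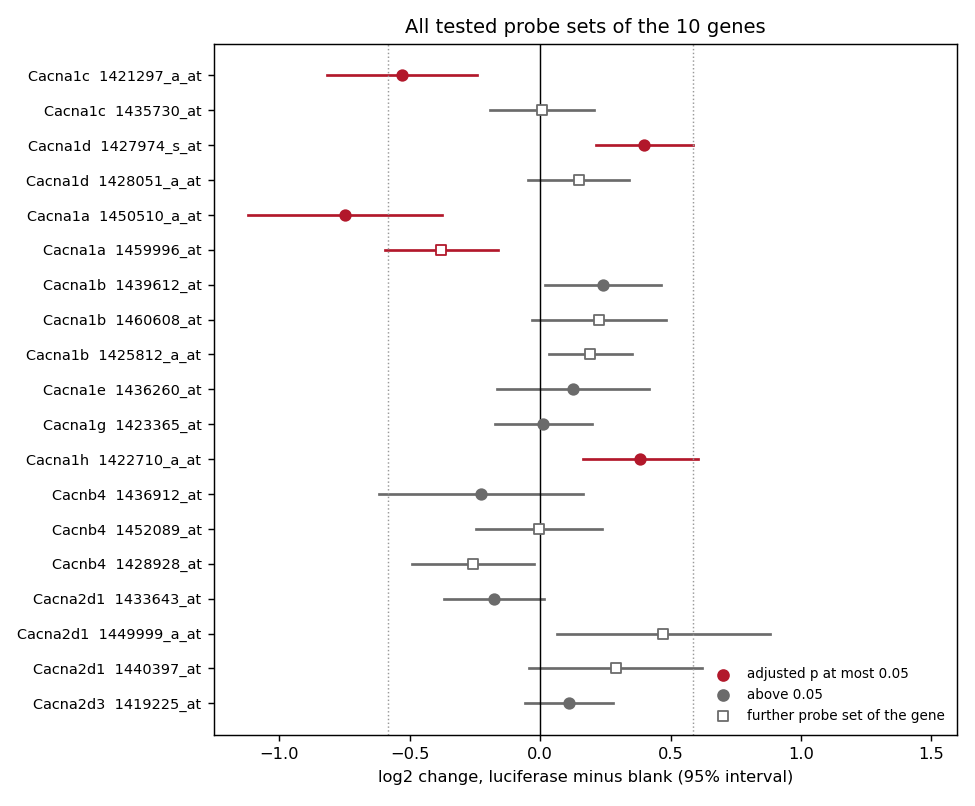
Log2 change, luciferase minus blank, of the 19 member probe sets (horizontal axis, with 95% confidence intervals from limma, 4 against 3 arrays), in the order of channel types, with circles for the probe set that stands for a gene, squares for the others and dotted lines at 1.5-fold in each direction. The 5 that passed, in red, lie 3 below 0 and 2 above it, and none belongs to an auxiliary subunit.

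The cultures were mixed, and in such bulk samples fewer cells of a type and less RNA per cell cannot be told apart. The neuron markers had a summed level of 45225 to 46484 in luciferase and 44552 to 47393 in blank, with 1 of 8 markers lower and none higher (*Nefl*, an axonal intermediate filament, was the lower one). The astrocyte markers stood higher in luciferase, with 8 of 12 higher, none lower and *Gjb6* under 50 on all arrays. Their summed level was 25767 to 28171 against 19143 to 21217. These sums weigh the brightest markers most. For neurons this was *Stmn2*, with means of 11640 in luciferase and 12147 in blank (adjusted p = 0.52, limma). For astrocytes it was *Aldoc*, with 9937 and 8466 (adjusted p = 0.081, limma). The vascular and meningeal markers stood lower, at 597 to 801 against 1052 to 1217, with 3 of 9 lower and *Cldn5*, *Col1a1*, *Col3a1* and *Pecam1* under 50 on all arrays. This lower sum rested mostly on *Dcn*, with means of 421 in luciferase and 835 in blank. *Flt1* (51.5 and 69.3) and *Col1a2* (42.0 and 56.5) were lower close to the limit of 50, and *Kdr* and *Lum* did not pass. Of the glutamatergic neuron markers 5 of 6 were measured, *Slc17a7* and *Tbr1* were higher and *Neurod6* was lower, and their sum was 3603 to 3938 against 4076 to 5022. The lower sum rested on *Neurod6*, with means of 1614 and 2590.2, and without it the other 4 summed to 2107 to 2174 against 1665 to 2084. The GABA neuron markers summed to 6500 to 7132 against 6902 to 7976, with 1 of 7 lower. The oligodendrocyte lineage markers summed to 6270 to 7474 against 6559 to 6733, with 1 of the 8 measured higher and *Mog* under 50. Of the 9 microglia markers 7, including *Aif1* and *Cx3cr1*, were under 50 on all arrays, and none of the others passed. The part of these shifts in the changes of the channel genes was not tested. The median level over all tested probe sets was 237 to 241 on the luciferase arrays and 216 to 235 on the blank arrays, and changes are given on the scale as deposited.

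The 2 L-type pore genes moved in opposite directions on the probe sets that stand for them. *Cacna1c*, the main L-type pore of heart and brain, had levels of 112, 137, 129 and 161 in luciferase replicates 1 to 4 and of 191, 172 and 219 in blank replicates 5 to 7. All 4 luciferase values lay under all 3 blank values, and the luciferase mean was 134.8 ± 20.4 (SD, n = 4) against 193.8 ± 23.7 (SD, n = 3), or 69.5% of blank. *Cacna1c* fell by 0.53 on the log2 scale (SE 0.13, 95% confidence interval from -0.82 to -0.24, adjusted p = 0.018, limma). *Cacna1d*, the L-type pore that opens at more negative voltages, had levels of 181, 170.0, 174 and 205 in luciferase and of 143, 136 and 135 in blank. Here all luciferase values lay above all blank values, with means of 182.6 ± 15.6 (SD, n = 4) and 138.0 ± 4.53 (SD, n = 3). *Cacna1d* rose by 0.40 (SE 0.083, interval from 0.21 to 0.59, adjusted p = 0.0098, limma). Both passed the adjusted p under all 15 alternative settings, though neither reached 1.5-fold, with log2 changes from -0.63 to -0.44 for *Cacna1c* and from 0.30 to 0.43 for *Cacna1d*.

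A further probe set was tested for each L-type gene, and neither passed. Probe set 1435730_at of *Cacna1c* had levels of 131, 117, 140.0 and 143 in luciferase and of 140, 128 and 127 in blank, so the groups overlapped. Its log2 change was 0.0072 (SE 0.089, interval from -0.19 to 0.21, adjusted p = 0.96, limma), and this interval does not reach the -0.53 of probe set 1421297_a_at, on which the fall of *Cacna1c* rests. The difference between the 2 probe sets of *Cacna1c* was not tested. Probe set 1428051_a_at of *Cacna1d* had levels of 83.5, 85.2, 77.2 and 74.8 in luciferase and of 79.7, 70.1 and 67.5 in blank. It pointed the same way as 1427974_s_at, whose suffix marks probes common to several transcripts, but its groups overlapped, with a log2 change of 0.15 (SE 0.086, adjusted p = 0.23, limma). Which transcripts of a gene each probe set detects was not analysed here.

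Sequence before the transcription start is shown for the L-type pair, since the probe sets that stand for its members moved in opposite directions. Each gene has more than 1 start in the RefSeq table (build GRCm38.p6). The windows hold the 250 bases before a start, and the window of the outermost start of each gene is printed 5′ to 3′ on the strand of the gene. They lie at chr6:119196410-119196659 (minus strand) for *Cacna1c* and at chr14:30491157-30491406 (minus strand) for *Cacna1d*. Capitals mark TATA box letters, and the *Cacna1c* window holds none.
Cacna1c: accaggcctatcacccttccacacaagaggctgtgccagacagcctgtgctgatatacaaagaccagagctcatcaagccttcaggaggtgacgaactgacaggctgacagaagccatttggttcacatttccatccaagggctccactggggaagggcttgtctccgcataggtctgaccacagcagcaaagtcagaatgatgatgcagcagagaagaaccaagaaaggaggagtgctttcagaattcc
Cacna1d: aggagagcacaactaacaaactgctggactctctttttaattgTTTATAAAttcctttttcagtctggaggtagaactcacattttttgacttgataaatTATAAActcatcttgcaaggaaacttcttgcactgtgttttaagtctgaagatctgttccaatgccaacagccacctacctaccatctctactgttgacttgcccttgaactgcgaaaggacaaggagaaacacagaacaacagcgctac
The *Cacna1c* window has 51.6% G and C, and none of the 5 motifs that were searched occurs in it. The *Cacna1d* window has 39.6% G and C and holds 3 matches to the TATA box, 2 of which overlap on opposite strands. The starts further inside the genes look different: a window of *Cacna1d* at chr14:30353487-30353736 has 86.4% G and C with 5 GC boxes, and one of *Cacna1c* at chr6:119108496-119108745 has 82.8% with 6 GC boxes, while another at chr6:118757975-118758224 has 50.4% and none. The median over all 32851 windows of the table was 52.4%.

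The table held 12 windows for 7 of the 10 genes, with no entry for *Cacna1a*, *Cacna1g* and *Cacna1h*. The motifs were searched on both strands, and overlapping matches were counted. The cAMP response element TGACGTCA, through which L-type calcium entry is known to act on transcription, was in 0 of the 12 windows and in 1.55% of all windows. The AP-1 site TGANTCA was in 0 of 12 and in 6.75% of all. The MEF2 pattern CTANNNNTAG, which allows any base at each N and so may match more than MEF2 sites, was in 0 of 12 and in 3.2% of all. The GC box GGGCGG was in 6 of 12 windows and in 32.7% of all, and the TATA box TATAAA was in 1 of 12 and in 12.4% of all. These letters describe the windows only, and the array gives no reading of which start was used.

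Among the pores of the nerve terminal, *Cacna1a* fell while *Cacna1b* and *Cacna1e* did not pass the test. *Cacna1a*, the P/Q-type pore, had levels of 141, 139, 152 and 161 in luciferase and of 229, 195 and 344 in blank. The luciferase values lay close together and under every blank value, whereas blank replicate 7 stood far above the other blank replicates. The means were 148.3 ± 10.4 (SD, n = 4) and 256.1 ± 78.0 (SD, n = 3), or 57.9% of blank, and the fall was 0.75 on the log2 scale or 1.68-fold (SE 0.17, interval from -1.12 to -0.38, adjusted p = 0.013, limma). Without blank replicate 7 the change was -0.51 (adjusted p = 0.0075), which still passed the adjusted p but no longer reached 1.5-fold. The change also passed the adjusted p under each of the 15 alternatives, from -0.92 to -0.51.

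The further *Cacna1a* probe set, 1459996_at, fell too. Its levels were 83.5, 91.0, 88.4 and 98.7 in luciferase and 134, 110 and 109 in blank, again without overlap, with means of 90.4 ± 6.37 (SD, n = 4) and 117.8 ± 14.4 (SD, n = 3). Its log2 change was -0.38 (SE 0.097, adjusted p = 0.022, limma), and it was past the threshold in 12 of 15 alternatives, missing it without blank replicate 5 (-0.28, adjusted p = 0.079), without luciferase replicate 1 (-0.34, adjusted p = 0.056) and without luciferase replicate 3 (-0.37, adjusted p = 0.056). *Cacna1a* was thus the member with 2 probe sets past the threshold in 1 direction.

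*Cacna1b*, the N-type pore, had levels of 724, 619, 705 and 808 in luciferase and of 649, 591 and 566 in blank on 1439612_at. The groups overlapped through luciferase replicate 2, and the log2 change of 0.24 (SE 0.099, interval from 0.019 to 0.46) had an adjusted p of 0.10 (limma). The other *Cacna1b* probe sets also gave positive values that did not pass. On 1425812_a_at the levels were 195, 204, 198 and 182 against 167, 175 and 169, without overlap, with a log2 change of 0.19 (adjusted p = 0.076), which passed with array weights (adjusted p = 0.016). On 1460608_at the levels were 612, 434, 494 and 536 against 459, 456 and 407, with overlap and a log2 change of 0.23 (adjusted p = 0.17).

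*Cacna1e*, the R-type pore, had levels of 820, 844, 864 and 1212 in luciferase and of 857, 835 and 844 in blank. Luciferase replicate 4 stood far above all other arrays, and the other 3 luciferase arrays lay around the blank values. The log2 change was 0.13 (SE 0.13, interval from -0.16 to 0.42, adjusted p = 0.50, limma), and without luciferase replicate 4 it was -0.0047.

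**Figure D2:**
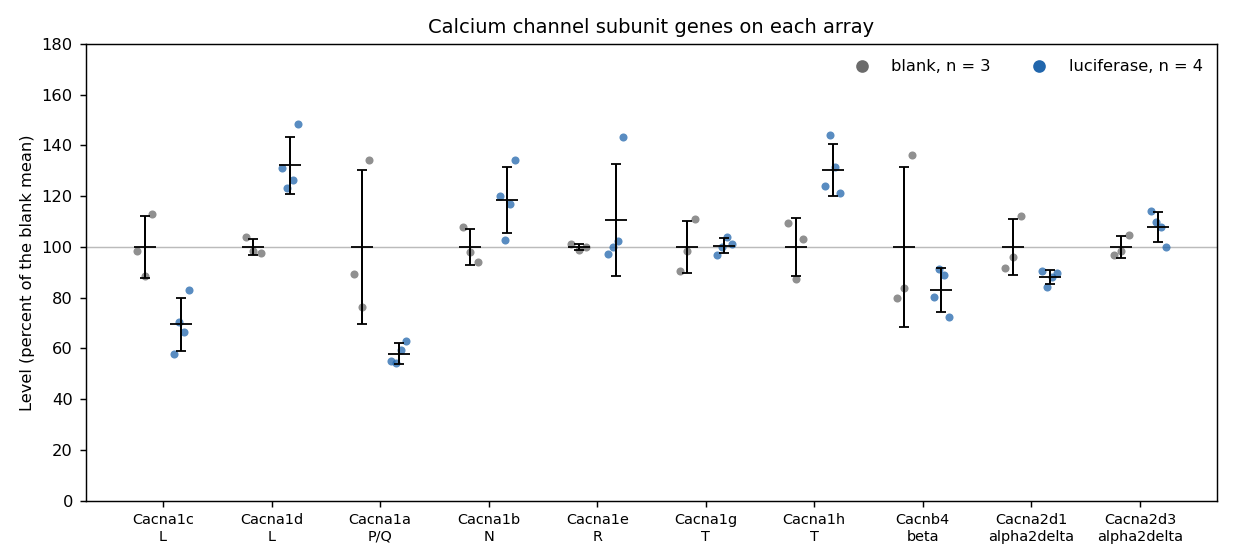
Level on each array (vertical axis, percent of the blank mean of the probe set that stands for the gene, from 0) for the 4 luciferase (blue) and the 3 blank (grey) arrays of each gene, with bars at the group means and error bars of 1 SD. The groups lie apart for *Cacna1a*, *Cacna1c*, *Cacna1d*, *Cacna1h* and *Cacna2d1*, and single arrays stand out for *Cacna1e* (luciferase replicate 4) and for *Cacna1a* and *Cacnb4* (blank replicate 7).

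Of the T-type pores, *Cacna1h* rose and *Cacna1g* did not pass. *Cacna1h*, the T-type pore that is blocked by low nickel, had levels of 337, 392, 357 and 330 in luciferase and of 298, 238 and 280 in blank. No blank value reached the lowest luciferase value, and the means were 354.2 ± 28.0 (SD, n = 4) and 272.1 ± 30.7 (SD, n = 3). The rise was 0.38 on the log2 scale (SE 0.099, interval from 0.16 to 0.60, adjusted p = 0.022, limma). It passed the adjusted p in 11 of 15 alternatives and missed it with quantile normalization (0.28, adjusted p = 0.053), without blank replicate 6 (0.29, adjusted p = 0.077), without luciferase replicate 2 (0.33, adjusted p = 0.056) and without luciferase replicate 3 (0.38, adjusted p = 0.055). *Cacna1g*, the T-type pore of thalamic relay neurons, had levels of 174, 180.4, 187 and 182 in luciferase and of 163, 177 and 200 in blank. The blank values enclosed the luciferase values, with a log2 change of 0.012 (SE 0.083, interval from -0.17 to 0.20, adjusted p = 0.93, limma).

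None of the 7 probe sets of the 3 auxiliary subunits passed on the values as deposited, and 3 of them passed under some alternatives. *Cacnb4*, a beta subunit that is carried mainly by P/Q-type channels, had levels of 603, 686, 670 and 544 in luciferase and of 601, 631 and 1025 in blank on 1436912_at. Blank replicate 7 was far above the rest, as it was for *Cacna1a*, and the groups overlapped, with a log2 change of -0.23 (SE 0.17, adjusted p = 0.36, limma). Without blank replicate 7 the value was 0.018. Probe set 1428928_at of *Cacnb4* had levels of 431, 469, 488 and 422 against 489, 506 and 635, without overlap but with the highest luciferase and the lowest blank value next to each other, and a log2 change of -0.26 (adjusted p = 0.10). This was -0.14 without blank replicate 7, and it passed after centring of the arrays or quantile normalization (adjusted p = 0.026 in both). The log2 change of 1452089_at was -0.0033 (adjusted p = 0.99).

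*Cacna2d1*, the alpha2delta subunit that binds gabapentin and a thrombospondin receptor in synapse formation, had levels of 1941, 1813, 1896 and 1926 in luciferase and of 1970.0, 2062 and 2412 in blank on 1433643_at. All luciferase values were under all blank values, but the log2 change of -0.18 (SE 0.085, interval from -0.37 to 0.014) did not pass (adjusted p = 0.16, limma). It was -0.090 without blank replicate 7, and it passed after centring of the arrays (-0.27, adjusted p = 0.028). Its other probe sets pointed the opposite way. On 1449999_a_at the levels were 715, 737, 881 and 1254 against 717, 567 and 613, with luciferase replicate 4 highest and a log2 change of 0.47 (SE 0.18, adjusted p = 0.086), which was 0.30 without that array. On 1440397_at the log2 change was 0.29 (adjusted p = 0.18), and it passed with array weights (0.37, adjusted p = 0.021), without blank replicate 7 (0.45, adjusted p = 0.028) and without both luciferase replicate 4 and blank replicate 7 (0.43, adjusted p = 0.0495). The level of *Cacna2d1* therefore has no settled direction over its probe sets. *Cacna2d3*, an alpha2delta subunit of the same family, had levels of 1438, 1384, 1358 and 1260.3 in luciferase and of 1219, 1241 and 1322 in blank. The groups overlapped through luciferase replicate 4 and blank replicate 7, with a log2 change of 0.11 (SE 0.075, interval from -0.060 to 0.28, adjusted p = 0.31, limma).

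**Figure D3:**
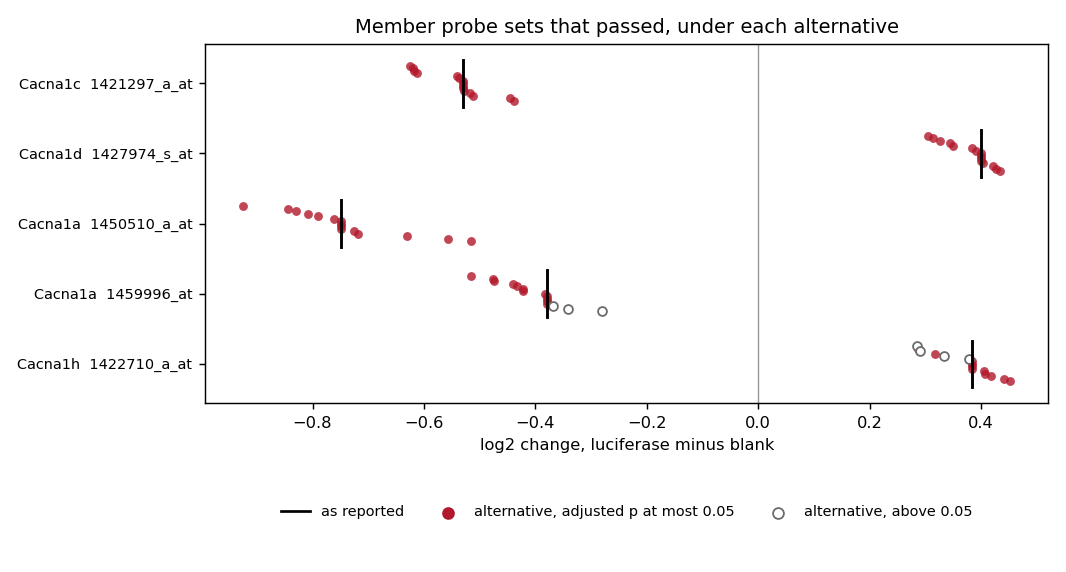
Log2 change, luciferase minus blank (horizontal axis), of the 5 member probe sets that passed, with a black bar at the value as reported and 1 point for each of 15 alternative settings, filled where the adjusted p was at most 0.05 and open where it was above. No point crosses 0, and the open points belong to 1459996_at of *Cacna1a* (3 points) and to *Cacna1h* (4 points).

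A gene that passes beside one that does not is not thereby shown to differ from it. The log2 ratio of 6 gene pairs was therefore compared between the groups on each array. The pairs were taken within the L-type pores, the P/Q-, N- and R-type pores, the T-type pores and the alpha2delta subunits. The test was a two-sided exact permutation test over the 35 splits of the 7 arrays. The smallest p this test can give with 4 against 3 arrays is 0.029, and 3 pairs reached it, at an adjusted p of 0.057. That no pair passed an adjusted p of 0.05 therefore does not show that the ratios did not differ, and the shifts are given with their SE. A ratio between genes is read only as a shift between the groups, since levels of different probe sets are not on a common scale. The ratio of *Cacna1c* to *Cacna1d*, on the log2 scale, was -0.69, -0.31, -0.43 and -0.35 in luciferase and 0.41, 0.34 and 0.70 in blank. Every luciferase value lay below every blank value, a shift of -0.93 (SE 0.14, exact p = 0.029, adjusted p = 0.057).

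The ratio of *Cacna1a* to *Cacna1b* was -2.36, -2.15, -2.21 and -2.32 in luciferase and -1.50, -1.60 and -0.72 in blank. The groups lay apart, with a shift of -0.99 (SE 0.24, exact p = 0.029, adjusted p = 0.057). Blank replicate 7, at -0.72, stood far above the other blank replicates, so the size of the shift rests partly on it. The ratio of *Cacna1a* to *Cacna1e* lay apart as well, with a shift of -0.88 (SE 0.23, exact p = 0.029, adjusted p = 0.057). Here too blank replicate 7 stood above the other blank replicates, at -1.30 against -1.90 and -2.10. The ratio of *Cacna1b* to *Cacna1e* overlapped, with a shift of 0.12 (SE 0.11, exact p = 0.40, adjusted p = 0.40). The T-type ratio of *Cacna1g* to *Cacna1h* overlapped, with a shift of -0.37 (SE 0.13, exact p = 0.057, adjusted p = 0.069). The ratio of *Cacna2d1* to *Cacna2d3* lay apart, with a shift of -0.29 (SE 0.072, exact p = 0.057, adjusted p = 0.069). With the mean of all probe sets of a gene in place of the brightest, the shift was -0.53 for *Cacna1c* to *Cacna1d*, and that of *Cacna2d1* to *Cacna2d3* turned to 0.086.

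**Figure D4:**
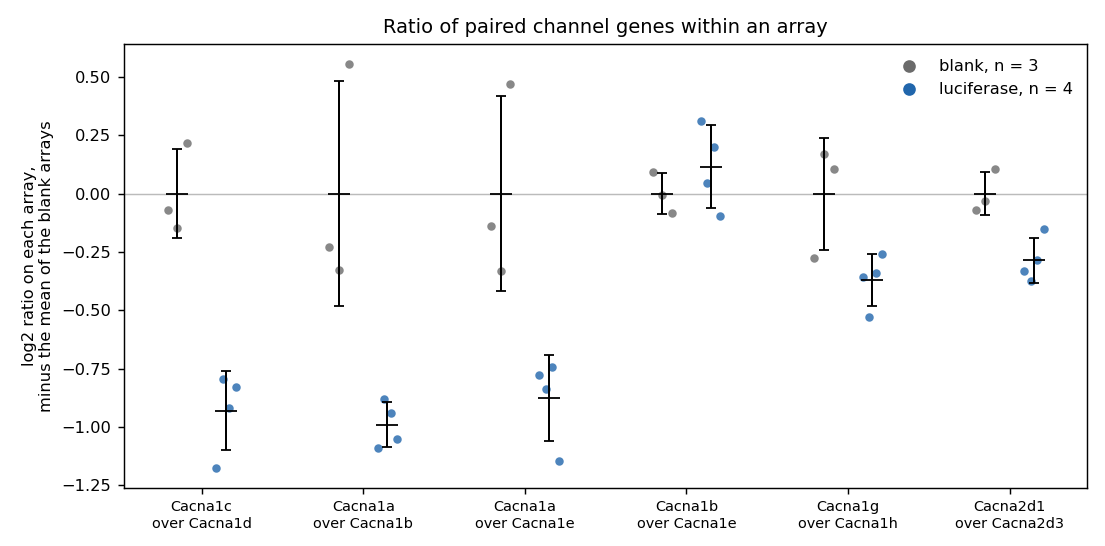
Log2 ratio of 6 pairs of channel subunit genes on each array (vertical axis, centred on the mean of the blank arrays), for 4 luciferase and 3 blank arrays, with bars at the group means and error bars of 1 SD. Luciferase lies apart from blank for *Cacna1c* to *Cacna1d*, *Cacna1a* to *Cacna1b*, *Cacna1a* to *Cacna1e* and *Cacna2d1* to *Cacna2d3*.

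Of 16 other voltage-gated calcium channel subunits, 9 had a tested probe set, and among these 2 were lower in luciferase, none was higher and 7 did not pass. Both are gamma subunits that act mainly as auxiliary proteins of AMPA receptors rather than of calcium channels. *Cacng7* had a level of 198.6 ± 14.0 (SD, n = 4) in luciferase and 269.4 ± 32.2 (SD, n = 3) in blank and fell by 0.44 on the log2 scale (SE 0.097, adjusted p = 0.013, limma). *Cacng2*, stargazin, had 386.4 ± 20.9 (SD, n = 4) and 475.2 ± 30.7 (SD, n = 3) and fell by 0.30 (SE 0.079, adjusted p = 0.025). It passed in 10 of 15 alternatives and missed the threshold without blank replicate 5 (adjusted p = 0.080), without luciferase replicate 2 (0.064) or 3 (0.053), without a filter on level (0.051) and without both luciferase replicate 4 and blank replicate 7 (0.052). Of its further probe sets, 1420596_at fell by 0.40 (adjusted p = 0.043), and 1453363_at had a log2 change of -0.077 with overlapping groups (adjusted p = 0.52). The median log2 change was 0.11 over the 9 genes and -0.034 over their 17 tested probe sets, of the opposite sign. Of these 17, 3 passed, all of them lower, or 17.6% against 24.5% of all probe sets tested.

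Of 24 channel partners and inhibitors, 19 were tested, 2 fell, 1 rose and 16 did not pass, with a median log2 change of 0.050 over genes and 0.064 over 35 probe sets. Over these 35 probe sets the balance was the other way, with 5 higher and 2 lower. The 7 that passed were 20% of the 35, against 24.5% of all probe sets tested. *Dpysl2* did not pass on the probe set that stands for it (0.067, adjusted p = 0.52, limma). A further *Dpysl2* probe set rose by 0.74 or 1.67-fold without overlap (adjusted p = 0.025). *Stac2*, an adaptor that slows the inactivation of L-type channels, had a level of 132.9 ± 15.4 (SD, n = 4) in luciferase and 260.3 ± 64.0 (SD, n = 3) in blank and fell by 0.95 on the log2 scale (SE 0.15, adjusted p = 0.0033, limma). *Rem2*, an activity-induced RGK GTPase that binds beta subunits and inhibits the channels, had 334.6 ± 39.7 (SD, n = 4) and 551.6 ± 17.4 (SD, n = 3) and fell by 0.73 (SE 0.098, adjusted p = 0.0016). *Nedd4l*, a ubiquitin ligase of membrane channels, rose by 0.38 (SE 0.10, adjusted p = 0.026), from 526.4 ± 80.7 (SD, n = 3) to 678.4 ± 21.6 (SD, n = 4), and missed the adjusted p when any 1 of 6 replicates was left out. Further *Nedd4l* probe sets rose by 0.42 (adjusted p = 0.011), 0.41 (adjusted p = 0.010) and 0.36 (adjusted p = 0.041) and passed. Another, with a log2 change of 0.29, did not pass (adjusted p = 0.13). The dependence of these further probe sets on single replicates was not tested.

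Of 23 genes of calcium release and extrusion, 20 were tested, 3 rose, 1 fell and 16 did not pass, with a median log2 change of 0.12 over genes and 0.041 over 42 probe sets. Over these 42 probe sets, 3 were higher and 5 lower. The 8 that passed were 19.0% of the 42, against 24.5% of all probe sets tested. Further probe sets of *Orai1* (-0.61, adjusted p = 0.0042), *Slc8a1* (-0.54, adjusted p = 0.020) and *Slc8a2* (-0.33, adjusted p = 0.030) were lower (limma). The probe sets that stand for these genes did not pass, and that of *Slc8a1* pointed the other way (0.26, adjusted p = 0.28, limma). Those of *Orai1* (-0.23, adjusted p = 0.13) and *Slc8a2* (-0.056, adjusted p = 0.64) were negative. *Slc8a3*, a sodium-calcium exchanger of the plasma membrane, rose by 0.39 on the log2 scale (SE 0.074, adjusted p = 0.0071, limma), from 803.8 ± 35.0 (SD, n = 3) to 1051 ± 53.8 (SD, n = 4). *Atp2a3*, a calcium pump of the endoplasmic reticulum, fell by 0.37 (adjusted p = 0.014), from 89.9 ± 9.68 (SD, n = 3) to 69.0 ± 1.86 (SD, n = 4), and did not pass without blank replicate 6 (adjusted p = 0.051). The other 2 that rose were *Slc24a2*, a potassium-dependent sodium-calcium exchanger (0.35, adjusted p = 0.034), and *Atp2b3*, a calcium pump of the plasma membrane (0.33, adjusted p = 0.029). Each missed the threshold in 8 of 15 alternatives. Further tested probe sets of *Slc8a3* (0.18, adjusted p = 0.24), *Slc24a2* (-0.015, adjusted p = 0.93) and *Atp2b3* (0.097, adjusted p = 0.52) did not pass (limma). That of *Atp2a3* passed (-0.44, adjusted p = 0.033, limma), though its groups overlapped.

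**Figure D5:**
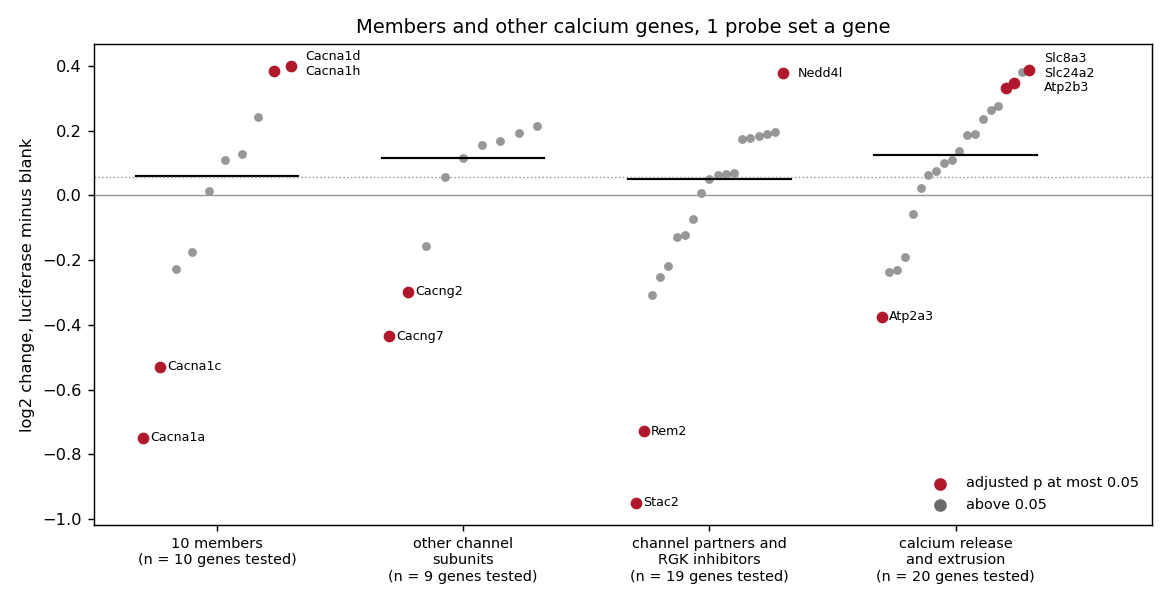
Log2 change, luciferase minus blank (vertical axis), of 1 probe set a gene for the 10 channel genes, 9 other subunits, 19 channel partners and inhibitors and 20 genes of calcium release and extrusion, with points in red and named where the adjusted p was at most 0.05, black bars at the list medians and a dotted line at the median of all tested probe sets (0.056). The named points lie on both sides of 0 in 3 of the lists, and only below it for the other subunits.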

How the data were processed

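Affymetrix arrays measured the RNA of 4 luciferase and 3 blank samples of mouse cortical neurons. The values are intensity on a linear scale, which the authors made by RMA and deposited (RMA version: not given in the sources used here), from 5.2 to 23763 in the probe sets used. Which arrays were normalized together is not stated in the sources used here. The authors left out 1 untransduced sample for quality. The labels and the methods name different RNA extraction reagents. The table held 0 columns of other samples, and samples of targeted hairpins were not analysed here.

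The blank columns sat 1 row low and were moved up, since the log2 group means of 45037 probe sets then had r = 0.995, against 0.421 as deposited. From the 45101 probe sets, 64 controls and 2441 of the _x kind were removed, and 22748 of the rest reached 50 on at least 1 array. Gene names came from the annotation of the array (34958 probe sets with 1 gene, 932 with several, 9211 unnamed here), matched by Entrez ID to RefSeq (34754 matched). Luciferase and blank were compared on log2 intensity by lmFit and eBayes (limma 3.58.1, R 4.3.3) without covariates, and p-values were adjusted by Benjamini-Hochberg across the 22748 probe sets. Passing means an adjusted p of 0.05 or less, and a call, after the methods of the study, needs 1.5-fold too. Array number limits the precision. The calculation was tested on simulated data.

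All 10 members are named with every tested probe set, and from each other list up to 4 genes past the adjusted p with the largest change. The further probe sets of *Cacng2*, *Nedd4l*, *Dpysl2*, *Orai1*, *Slc8a1*, *Slc8a2*, *Slc8a3*, *Atp2a3*, *Slc24a2* and *Atp2b3*, and the named cell type markers, were chosen with their values in view. The members and lists were chosen with earlier results of these data known. The alternatives were 3 filters on level, quantile normalization, centring of each array, eBayes with trend and robust, array weights, and leaving out each replicate. Leaving out both luciferase replicate 4 and blank replicate 7 was chosen after seeing the data. Build GRCm38.p6 applies to the promoter windows only, since the files name no build.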

Additional observations from a re-analysis of the deposited data

Results flagged for a closer look

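Among 28 groups of 4 luciferase values, 2 held an array far from the others, and chance flags about 1 group in 20. For *Cacna1e*, luciferase replicate 4 had a level of 1212, against 864 for the next and 820 for the lowest luciferase array, a gap that is 0.888 of the range of the group. For *Nedd4l*, luciferase replicate 2 had a level of 710.5, against 673 for the next and 665 for the lowest, or 0.838 of the range. The blank groups of 3 were too small for this rule.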

How the results depend on the processing

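Member probe sets that passed numbered 3 lower and 2 higher, against 5 lower with each array centred on its median, 1 higher with quantile normalization and 4 higher with array weights. Leaving out single replicates gave 2 to 3 lower and 1 to 3 higher, with 1 higher without blank replicate 6, luciferase replicate 2 or luciferase replicate 3, and 3 without blank replicate 7 or without both luciferase replicate 4 and blank replicate 7. The probe sets called at 1.5-fold numbered 953 over the whole array, 69.2% of them higher, and 817 to 1128 over the alternatives, with 57.0% higher under quantile normalization and 43.8% under centring. All at the adjusted p alone ranged from 3245 to 9550.

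Among members, 5 probe sets that passed under no setting changed sign. The log2 change of *Cacna1c* on 1435730_at was -0.051 with array weights, -0.057 without luciferase replicate 4 and blank replicate 7, -0.089 with centring, -0.067 with quantile normalization, and -0.032 to 0.068 with 1 replicate left out. That of *Cacna1g* was -0.083 with centring, -0.076 with quantile normalization and -0.056 to 0.089 with 1 left out. That of *Cacna1e* was -0.0057 with both left out and -0.0047 to 0.18 with 1 left out. That of *Cacnb4* on 1436912_at was 0.014 with array weights, 0.083 with both left out and -0.37 to 0.018 with 1 left out, and on 1452089_at -0.076 to 0.069 with 1 left out. Among pairs, *Cacna2d1* over *Cacna2d3* turned to 0.086 with the mean of all probe sets. The cause of these changes was not tested. No paired analysis was done, because nothing in the labels links a luciferase sample to a blank sample.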
